A study of Mus musculus with 12 samples.

Results

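Valine tRNAs carry the amino acid valine to the ribosome and read its codons with 3 anticodons, written here as AAC, CAC and TAC in DNA letters. All rows whose entry name begins with tRNA-Val were taken from the 6 deposited tables, which gave 20 of 404 tRNA entries. Entries with identical values in all 12 libraries were counted once, which left 12 distinct valine tRNAs of 213. Of these, 5 had the AAC anticodon (7 entries), 6 had CAC (10 entries) and 1 had TAC (3 entries). The members were chosen by name and not by any measured value.

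Pseudouridine is an isomer of uridine made in finished RNA by pseudouridine synthases, and tRNAs carry it at recurring places. PUS7 is known to act on the D arm, PUS1 on the anticodon stem, PUS3 on the 3′ side of the anticodon loop, and TRUB1 and PUS10 on the T loop. The T loop folds against the D loop to hold the L shape of a tRNA, and its pseudouridine is among the most widely shared of all tRNA modifications.

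The study mapped pseudouridine in hematopoietic stem and progenitor cells, which give rise to the blood cells, and its title names pseudouridine synthase 10 (PUS10) as induced by aging. All samples are labelled wild type and young or old, with no age in months. RNA of each age was incubated in BEU buffer alone or in the same buffer with CMC, a carbodiimide that stays on pseudouridine and stops reverse transcriptase, which made 4 groups of 3 libraries. All RNA, with and without CMC, had first been demethylated with wild-type and D135S mutant AlkB, enzymes that remove some base methylations that halt the copying. Nothing in the labels ties a replicate to an animal or culture of its own. The p-values therefore rest on the scatter among the libraries at hand, and part or all of it may be technical. The tables hold tRNAs only, so the cell type could not be checked against marker genes.

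For each base the tables give the reads that cover it and the reads that stop there, and the stop rate is the second as a percent of the first. The CMC rise is the stop rate with CMC minus that in the BEU library of the same age and number, in percentage points. A site was called when edgeR's quasi-likelihood test gave a Benjamini-Hochberg adjusted p under 0.05, the mean rise was at least 10 points and all 3 pairs rose. A row was tested where coverage reached at least 20 in all 12 libraries. Adding up the best-covered base of all 213 tRNAs gave 533736 to 1061426 reads per BEU library and 201980 to 767650 per CMC library. Valine tRNAs held 5.74% to 7.85% of that sum with BEU and 7.32% to 9.43% with CMC. Coverage never exceeded 8015 at any base, and 2 to 7 of the 12 valine tRNAs in a BEU library, and 0 to 6 in a CMC library, reached at least 7500. Stop rates in a library at that ceiling were mostly low. Of 685 such rates at tested valine bases, 100 exceeded 1%, and the highest was 50.6%.

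The AAC and CAC tRNAs are near copies of each other and hold equal stop reads at many rows. tRNA-Val-AAC-1-1 and tRNA-Val-CAC-2-1 differ by A34C alone, with positions counted from the 5′ end of the tRNA. The pair tRNA-Val-AAC-3-1 and tRNA-Val-CAC-3-1, which also differ by A34C alone, held equal stop reads in all 12 libraries at 25 of 25 rows from 37 to 61. For tRNA-Val-AAC-2-1 and tRNA-Val-CAC-1-1 the stop reads were equal at 17 of these 25 rows, and for tRNA-Val-AAC-4-1 and tRNA-Val-CAC-4-1 at 19. In the last pair the coverage of the first was 0.0583 times that of the second (median over rows and libraries). tRNA-Val-TAC-1-1 differs from tRNA-Val-AAC-1-1 at 17 bases, and no row from 37 to 61 had equal stop reads in all libraries between them. Values of AAC and CAC tRNAs are therefore not separate measurements of 2 anticodons, whereas those of TAC are measured apart.

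The sequences below, read from the rows of the deposited tables, are the best-covered tRNA of each anticodon, in which the called sites can be compared, and the tRNAs whose T bases differ from theirs at the positions discussed. Capitals mark T sites called in young or old cells, and each sequence runs from the 5′ to the 3′ end.
tRNA-Val-AAC-1-1: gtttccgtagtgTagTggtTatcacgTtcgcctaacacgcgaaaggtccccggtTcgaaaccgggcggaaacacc
tRNA-Val-CAC-2-1: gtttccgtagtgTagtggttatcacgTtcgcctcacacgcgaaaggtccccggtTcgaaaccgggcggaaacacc
tRNA-Val-TAC-1-1: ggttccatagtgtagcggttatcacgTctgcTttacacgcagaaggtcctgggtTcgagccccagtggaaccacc
tRNA-Val-AAC-2-1: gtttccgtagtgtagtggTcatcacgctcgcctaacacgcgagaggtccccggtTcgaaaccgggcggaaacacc
tRNA-Val-CAC-1-1: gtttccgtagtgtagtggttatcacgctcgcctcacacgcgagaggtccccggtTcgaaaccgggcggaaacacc
tRNA-Val-AAC-3-1: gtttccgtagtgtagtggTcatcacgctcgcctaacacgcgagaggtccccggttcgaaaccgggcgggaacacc
tRNA-Val-CAC-3-1: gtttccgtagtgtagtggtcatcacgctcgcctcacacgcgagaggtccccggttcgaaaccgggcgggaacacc
tRNA-Val-AAC-4-1: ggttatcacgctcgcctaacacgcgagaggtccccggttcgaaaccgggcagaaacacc
tRNA-Val-CAC-5-1: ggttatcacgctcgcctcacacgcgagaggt

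The last 2 sequences begin at row 17 of the tRNA, where the deposited rows of those entries start. The last 6 of these 9 carry T27C and A43G relative to tRNA-Val-AAC-1-1. The bases at positions 27 and 43 face each other at the end of the anticodon stem, and are T with A in the first 3 tRNAs and C with G in the others. tRNA-Val-TAC-1-1 carries C32T relative to tRNA-Val-CAC-5-1 and is the only valine tRNA with a tested T at position 32.

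Of 92 valine T sites tested, 12 were called in young cells, or 13% against 18.8% of the 2189 T sites of all tRNAs. In old cells 18 of 92 were called, or 19.6% against 20.3% of all, and they included all 12 called in young. The calls lay at position 13 of the D arm (2 of 2 tested in both ages), at position 16 (1 of 3), at rows 19 and 20 of the D loop (0 of 12 in young and 3 of 12 in old), at position 27 (5 of 5), at position 32 (1 of 1) and at position 55 (3 of 10 in young and 6 of 10 in old). None of the 8 T sites at position 28, the 9 at position 33, the 10 at position 47 or the 10 at position 54 was called in either age. By anticodon, 5 of 42 AAC sites, 4 of 38 CAC sites and 3 of 12 TAC sites were called in young, and 10, 5 and 3 in old. The median rise over all 92 sites was 3.18 points in young and 3.40 in old, beside 1.75 and 2.25 over the 2189. Both shares of called sites were no higher than the background of all tRNAs.

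**Figure D1:**
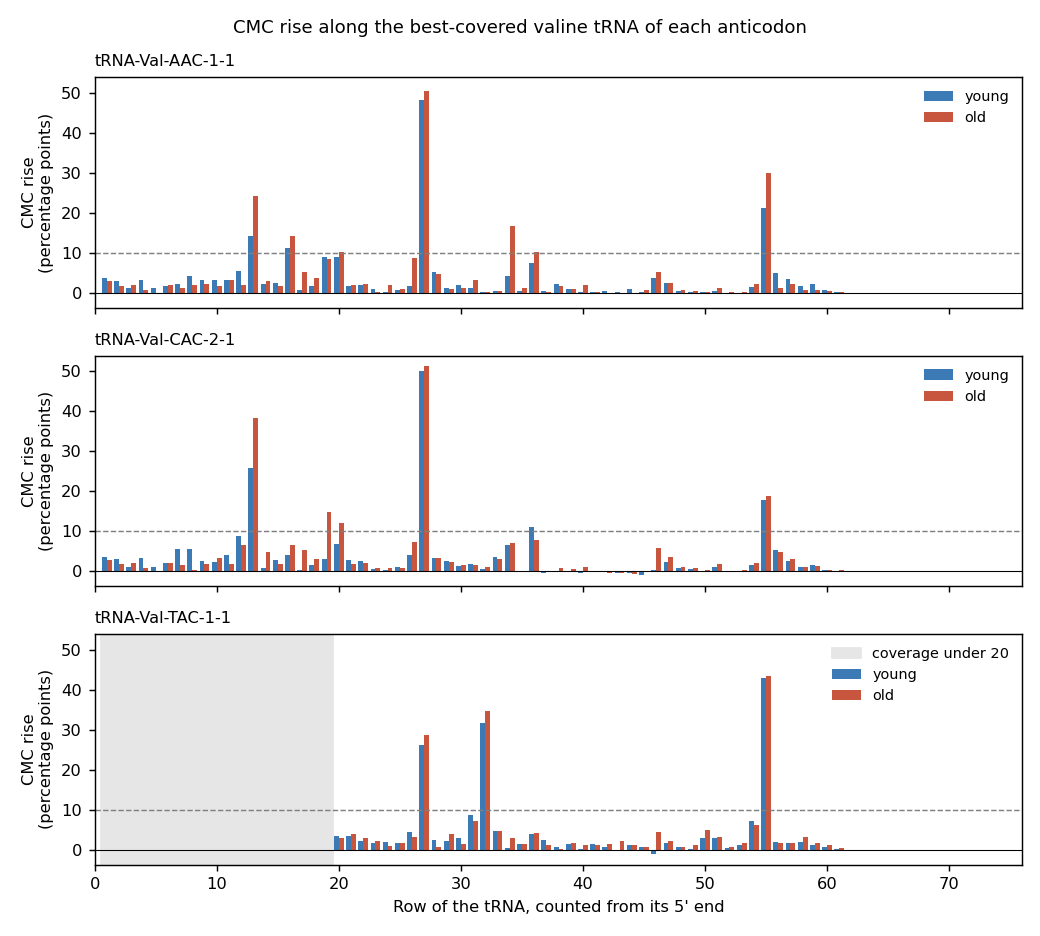
Mean CMC rise in percentage points (n = 3 pairs per age) at each row of the best-covered AAC, CAC and TAC valine tRNA, for young (blue) and old (red) cells; the dashed line marks 10 points and grey marks rows with coverage under 20. Rows 27 and 55 stand out in all 3 tRNAs (26.2 and 42.9 points in young tRNA-Val-TAC-1-1), row 13 in the AAC and CAC tRNAs, and row 32 only in the TAC tRNA.

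Position 13, the known PUS7 site at the end of the D stem, rose in both tRNAs that were deep enough to test. In tRNA-Val-CAC-2-1 the stop rate there was 1.03, 2.49 and 1.68% in the young BEU libraries 1 to 3 and 29.3, 33 and 20.0% with CMC, and 1.96, 1.79 and 2.64% and 39.5, 41.1 and 40.7% in old. Every CMC library lay above every BEU library. CMC raised the rate by 25.7 ± 6.52 points in young and by 38.3 ± 0.903 points in old (SD, n = 3 each; edgeR, adjusted p = 1.66e-06 and 6.69e-07). In tRNA-Val-AAC-1-1 the rates were 0.31, 1.25 and 0.759% in young BEU, 17.2, 17.3 and 10.3% in young CMC, 0.839, 0.884 and 1.32% in old BEU and 33.3, 22.2 and 20.0% in old CMC libraries. These values did not overlap between treatments either, with a rise of 14.2 ± 4.0 and 24.2 ± 7.33 points (SD, n = 3 each; edgeR, adjusted p = 1.8e-05 and 6.5e-06). Few reads reached so far toward the 5′ end with CMC: coverage was 29 to 226 in the CMC libraries of tRNA-Val-AAC-1-1 and 40 to 348 in those of tRNA-Val-CAC-2-1. Both sites lay below the coverage ceiling in all libraries. In the other tRNAs that hold T at position 13, at least 1 library had coverage under 20 and no test was made. There the mean CMC rate was 21% in young and 29% in old for tRNA-Val-TAC-1-1, with BEU rates of 1.87% and 3.21%. For tRNA-Val-CAC-4-1, whose deposited rows begin at row 8, it was 53.6% and 74.5%, beside BEU rates of 8.06% and 9.21%. For tRNA-Val-CAC-1-1 it was only 7.37% and 13.9%. In tRNA-Val-AAC-2-1, tRNA-Val-AAC-3-1, tRNA-Val-AAC-5-1 and tRNA-Val-CAC-3-1 it lay between 21.1% and 25.6%, with BEU rates between 0.853% and 1.36%.

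The D loop, named for the dihydrouridine it holds, stopped reverse transcriptase already without CMC, and the rises over that level were small. At position 16 of tRNA-Val-AAC-1-1 the BEU rates were 18.8, 20.1 and 17.7% in young and 17.2, 21.5 and 21.5% in old libraries, and the CMC rates 31, 22.8 and 37% and 35.8, 33.3 and 33.7%. Each CMC value exceeded the BEU values of its age, in young library 2 by 2.7 points only. The rise of 11.3 ± 8.28 and 14.2 ± 3.83 points (SD, n = 3 each) was called in both ages (edgeR, adjusted p = 0.0309 and 0.00781). The young call ended when young replicate 1 or 3 or old replicate 2 or 3 was left out (7.40 to 11.3 points) and when 1 stop read was subtracted everywhere (10.6 points), and the old call without old replicate 1 (12 points). Position 16 of tRNA-Val-CAC-2-1 had a rise of 4.16 and 6.56 points and was not called. In tRNA-Val-CAC-4-1 the CMC rate there lay below the BEU rate in all 6 pairs, with a mean rise of -13.8 points in young and -12.2 in old. Row 20 of tRNA-Val-AAC-1-1, with 10.2 ± 7.04 points, and row 19 of tRNA-Val-AAC-2-1 and tRNA-Val-AAC-3-1, with 11.4 ± 5.62 and 12.8 ± 7.07 points (SD, n = 3 each), were called in old only. Their adjusted p in edgeR was 0.0477, 0.0497 and 0.034, and their young rises were 9.09, 5.75 and 7.08 points. Each of these 3 calls was lost when single pairs were left out, with values down to 6.21, 8.4 and 8.98 points without old replicate 2. The call at row 19 of tRNA-Val-AAC-2-1 was lost without any 1 of the 6 pairs. Coverage at row 19 in the old CMC libraries was 41, 22 and 74 in tRNA-Val-AAC-2-1 and 41, 21 and 77 in tRNA-Val-AAC-3-1. The calls at row 19 of these near copies are therefore not separate measurements.

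Position 27, at the first pair of the anticodon stem and a known PUS1 site, gave the largest rises of the valine tRNAs. In tRNA-Val-AAC-1-1 the BEU rates were 2.21, 2.39 and 2.61% in young and 1.95, 1.73 and 2.38% in old libraries. With CMC they were 51.9, 52.3 and 47.4% and 53.3, 53.4 and 50.5%. All CMC values lay far above all BEU values, and the mean rise reached 48.1 ± 2.92 points in young and 50.4 ± 1.99 in old (SD, n = 3 each; edgeR, adjusted p = 3.58e-08 and 1.82e-08). For tRNA-Val-CAC-2-1 the CMC rates were 51.5, 50.8 and 53.2% in young and 53.3, 53.3 and 52.7% in old, against BEU rates of 2.84, 2.6 and 0.188% and 0.189, 2.44 and 2.83%. The ranges did not overlap, and the rise was 49.9 ± 2.63 and 51.3 ± 1.69 points (SD, n = 3 each; edgeR, adjusted p = 0.00133 and 0.00103). Young BEU 3 and old BEU 1, its lowest values, stood at the coverage ceiling. tRNA-Val-AAC-5-1 rose most, by 60.9 ± 4.0 and 63.8 ± 3.22 points (SD, n = 3 each), and tRNA-Val-CAC-4-1 by 51.4 ± 3.06 and 52.6 ± 1.68. From row 26 to row 27 of young CMC 1, coverage rose from 178 to 387 in tRNA-Val-AAC-1-1 and from 78 to 290 in tRNA-Val-AAC-5-1. These steps were similar in number, so the higher rate in tRNA-Val-AAC-5-1 came with fewer reads that passed the base. Rates of such near copies are not separate measurements. The lowest rise was that of tRNA-Val-TAC-1-1, with BEU rates of 0.817, 0.789 and 1.02% and 0.702, 1.29 and 1.4% and CMC rates of 27.4, 23.2 and 30.6% in young and 32.8, 29.7 and 27.1% in old. Its CMC and BEU ranges lay far apart, with a rise of 26.2 ± 3.6 and 28.7 ± 3.23 points (SD, n = 3 each; edgeR, adjusted p = 1.65e-07 and 1.69e-07). At the neighbouring position 28, the other PUS1 site, the 8 tested AAC and CAC tRNAs had rises of 0.918 to 6.48 points in young, and none reached 10.

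Stops also rose with CMC at bases other than T, and these calls lay next to or at position 27. Of 496 other valine bases tested, 5 were called in young and 8 in old, or 1.01% and 1.61% against 0.368% and 0.61% of the 7870 such bases of all tRNAs. The largest was the C at position 27 of tRNA-Val-CAC-1-1. Its stop rate was 7.63, 14.7 and 7.49% in young BEU, 49.4, 37.4 and 51.2% in young CMC, 7.5, 5.95 and 9.84% in old BEU and 53.7, 63.6 and 39.8% in old CMC libraries. The treatments did not overlap, and the rise was 36.1 ± 11.6 and 44.6 ± 13.9 points (SD, n = 3 each; edgeR, adjusted p = 0.00568 and 0.00107). The same C rose in tRNA-Val-CAC-3-1 by 25.3 ± 10.7 and 35 ± 12.3 points, in tRNA-Val-AAC-3-1 by 16.1 ± 10.6 and 18.1 ± 4.83, and in tRNA-Val-AAC-2-1 by 14.3 ± 10.2 and 17.3 ± 4.78 (SD, n = 3 each). These near copies are not separate measurements. From row 26 to row 27 of young CMC 1, coverage rose from 44 to 87 in tRNA-Val-CAC-1-1 and from 87 to 130 in tRNA-Val-CAC-3-1. It rose from 67 to 80 in tRNA-Val-AAC-2-1 and from 59 to 72 in tRNA-Val-AAC-3-1. The G at position 26 of tRNA-Val-CAC-1-1 was the fifth call of both ages, with 25.2 ± 2.59 and 21.8 ± 7.16 points. Called in old only were position 26 of tRNA-Val-AAC-2-1, tRNA-Val-CAC-3-1 and tRNA-Val-AAC-5-1, with 10.8, 10.3 and 14.7 points. The young calls at the C ended without young replicate 1 or 3 in each of the 4 tRNAs, with rises between 9.64 and 33.2 points. In old cells the call ended without old replicate 1 for tRNA-Val-AAC-2-1 (15.3 points) and without old replicate 1 or 2 for tRNA-Val-AAC-3-1 (16.3 and 17.1). The call at the G of tRNA-Val-CAC-1-1 ended without young replicate 1 in young (25.5 points) and without old replicate 3 in old (19.6). Reads here were few, 43 to 203 per CMC library at the C of tRNA-Val-CAC-1-1 against 570 to 3732 at the T of tRNA-Val-CAC-2-1.

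Position 32, which opens the anticodon loop, was measured as a T in tRNA-Val-TAC-1-1 alone. The BEU rates were 1.32, 0.991 and 1.15% in young and 0.659, 1.14 and 1.24% in old libraries, and the CMC rates 34.3, 32.7 and 31.5% and 36.5, 38.8 and 32%. The 6 CMC libraries lay between 31.5% and 38.8%, apart from every BEU library. CMC raised the rate by 31.7 ± 1.29 points in young and by 34.8 ± 3.58 points in old (SD, n = 3 each; edgeR, adjusted p = 7.98e-08 and 5.33e-08), with no ceiling in any library. The T beside it at position 33, which almost all tRNAs share, had a rise of 4.69 and 4.77 points in the same tRNA and between -0.38 and 3.56 in the others in young cells. The wobble T at position 34 of the TAC anticodon had a rise of 0.547 and 3.04 points. No valine tRNA held a tested T at positions 38 and 39, the known PUS3 sites.

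In the T loop, position 55, the base that TRUB1 and PUS10 are known to act on, gave rises that differed between valine tRNAs. From row 54 to row 55 of young CMC 1, coverage rose from 2642 to 3953 in tRNA-Val-AAC-1-1 and from 1261 to 2590 in tRNA-Val-AAC-2-1. These steps were similar in number, so the higher rate in tRNA-Val-AAC-2-1 came with fewer reads that passed the base. Rates of such near copies are not separate measurements. tRNA-Val-TAC-1-1 had CMC rates of 44.4, 40.0 and 46.7% in young and 43.2, 46.5 and 43.3% in old cells, and BEU rates of 0.801, 1.4 and 0.352% and 0.352, 0.995 and 1.53%. Young BEU 3 and old BEU 1 were at the ceiling. The treatments were far apart, with a rise of 42.9 ± 3.95 and 43.4 ± 1.94 points (SD, n = 3 each; edgeR, adjusted p = 3.53e-06 and 4.1e-06). tRNA-Val-AAC-2-1 and tRNA-Val-CAC-1-1, each with 1 BEU and 1 CMC library at the ceiling there, rose by 47.9 ± 2.34 and 48.1 ± 2.03 points in young and by 49 ± 3.12 and 49 ± 3.02 in old (SD, n = 3 each). The young call of tRNA-Val-CAC-1-1 (adjusted p = 0.00723 by edgeR) ended without young replicate 1 or 3, with 48.4 and 46.9 points. In tRNA-Val-AAC-1-1 the CMC rates were 33, 0.389 and 32.8% in young and 30.9, 32.3 and 30.2% in old, against BEU rates of 0.276, 1.96 and 0.527% and 0.527, 1.31 and 1.73%. Young CMC library 2 stood apart from the other 5 CMC libraries, and its coverage there, 7962 reads, was at the ceiling, as was that of old CMC 3 and 3 BEU libraries. The young rise of 21.2 ± 19.7 points was not called, the old rise of 30.0 ± 1.29 was (SD, n = 3 each; edgeR, adjusted p = 0.0734 and 0.0126). Without young replicate 2 the young rise was 32.5 points and was called, and the old call ended without any 1 of the 3 old pairs (29.4 to 30.7 points).

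The same library was also low in tRNA-Val-AAC-5-1 and tRNA-Val-CAC-2-1 at position 55. tRNA-Val-AAC-5-1 had a rise of 21.4 ± 20.0 points in young and 30.5 ± 1.07 in old, and of 32.9 in young without replicate 2. tRNA-Val-CAC-2-1 had CMC rates of 27.6, 0.551 and 26.7% in young and 25.2, 26.5 and 6.0% in old, where young CMC 2 and old CMC 3 were at the ceiling. Its 6 BEU libraries were all at the ceiling too, so that the rise of 17.8 ± 15.4 and 18.8 ± 11.3 points (SD, n = 3 each) is close to the CMC rate alone. All 3 were called in old only, and leaving out young replicate 2 brought all 3 young calls. The old call ended without any old pair in tRNA-Val-AAC-5-1 (30.1 to 31.1 points) and without old replicate 1 or 2 in tRNA-Val-CAC-2-1 (15.8 and 15.2). Another 4 tRNAs stayed under 10 points in young: tRNA-Val-AAC-3-1 with 7.68 ± 2.49, tRNA-Val-CAC-3-1 with 7.31 ± 2.42, tRNA-Val-AAC-4-1 with 5.39 ± 1.54 and tRNA-Val-CAC-4-1 with 0.419 ± 0.0659 (SD, n = 3 each). The first pair carries A69G and the second G67A relative to tRNA-Val-AAC-1-1, both in the 3′ strand of the acceptor stem, and the T loop of all 4 is the same as that of tRNA-Val-AAC-2-1 and tRNA-Val-CAC-1-1. Whether these base differences, or the way reads were assigned to near copies, bear on the rise was not tested. Position 54, the neighbouring base and another known PUS10 site, was called in none. The highest rise there was 7.11 ± 1.53 points in young and 6.33 ± 0.994 in old, in tRNA-Val-TAC-1-1, and the other 9 ranged from 0.0354 to 3.91 in young.

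**Figure D2:**
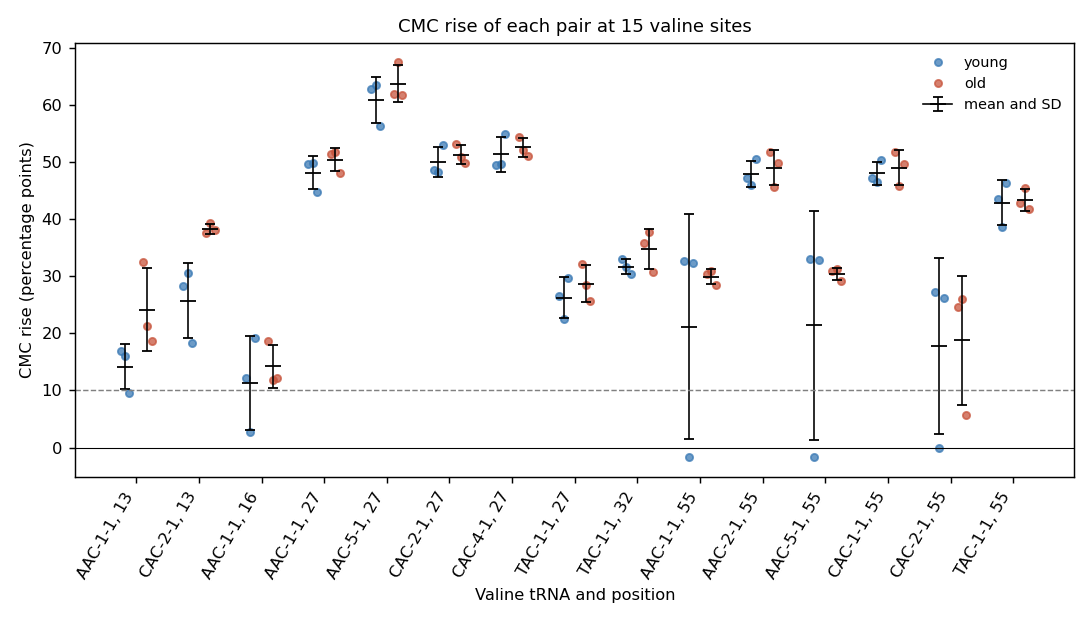
CMC rise in percentage points of each pair of libraries (points) with mean and SD (n = 3) at 15 valine T sites, young in blue and old in red; the dashed line marks 10 points. Position 27 lies near 50 points in the AAC-1-1, CAC-2-1 and CAC-4-1 tRNAs and between 22.4 and 32.1 in TAC-1-1, and 1 young pair falls to about 0 at position 55 of AAC-1-1, AAC-5-1 and CAC-2-1.

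Anticodons were compared within each pair of libraries, at positions where both hold T, with counts summed over the tRNAs of an anticodon. limma with Benjamini-Hochberg adjustment called 6 of 30 valine differences of at least 10 points, beside 14.2% called of the 492 comparisons over all amino acids. At position 27 TAC rose less than AAC, by 27.5 against 55.6 points, a difference of 28.1 ± 1.93 (SE, 6 pairs; limma, adjusted p = 0.00053). Against CAC the difference was 23.8 ± 0.686 points (adjusted p = 3.53e-05), and both had the same sign in 6 of 6 pairs. With the best-covered tRNA of each anticodon alone they were 21.8 and 23.2 points. On the scale of log odds neither was called (adjusted p = 0.851 and 0.27 by limma). At position 55 the order of the summed values was the other way round, with TAC at 43.1 points, AAC at 30.7 and CAC at 21.9. Single tRNAs did not follow this order. In old cells tRNA-Val-AAC-2-1 and tRNA-Val-CAC-1-1 rose by 49 points each and tRNA-Val-TAC-1-1 by 43.4, whereas the other AAC and CAC tRNAs rose less. The AAC and CAC sums also hold CMC libraries at the ceiling. AAC minus TAC was -12.4 ± 2.32 and CAC minus TAC -21.2 ± 1.3 points (SE, 6 pairs; limma, adjusted p = 0.014 and 0.000345). TAC itself was at the ceiling in 2 BEU libraries there, so neither comparison could be made below it. With tRNAs averaged in place of summed, AAC minus TAC was -20.9 points. The AAC difference was no longer called without young replicate 2 (-9.95 points) and, with -12.5 and -13 points, without old replicate 2 or without old replicate 3.

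Between AAC and CAC, 2 sites of the D arm differed. At position 13 AAC rose by 19.2 and CAC by 32 points, a difference of -12.8 ± 2.24 (SE, 6 pairs; limma, adjusted p = 0.0112) with the same sign in 6 of 6 pairs. This set 1 tRNA, tRNA-Val-AAC-1-1, against 1, tRNA-Val-CAC-2-1. In CAC tRNAs with too few reads to test, mean CMC rates were 7.37% in young and 13.9% in old tRNA-Val-CAC-1-1. They were 25.2% and 25.6% in tRNA-Val-CAC-3-1 and 53.6% and 74.5% in tRNA-Val-CAC-4-1. In the untested AAC tRNAs they lay between 21.1% and 25.1%. On log2 odds the sign of the difference turned, to 0.11, and it was not called (adjusted p = 0.801 by limma). Without young replicate 3, when more tRNAs could pass the coverage minimum, it was -23.3 points. At position 16 AAC rose by 12.8 points and the CAC value was -0.0197, a difference of 12.8 ± 1.62 (SE, 6 pairs; limma, adjusted p = 0.00371). With only the best-covered tRNA of each anticodon it was 7.42 points and no longer called. At position 27 AAC minus CAC was 4.29 ± 1.73 points, which was not called (SE, 6 pairs; limma, adjusted p = 0.135), and -1.36 with the best-covered tRNAs.

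Age made no called difference at any valine T site. edgeR's interaction test called 0 of 15 valine sites and 0 of 439 sites of all tRNAs (0%), and at an unadjusted p under 0.05 there were 0 of 15 valine sites and 22 of 439 (5.01%). limma on log odds also called 0, with 0 at an unadjusted p under 0.05. The adjusted p was 0.999 at each of the 15. The mean rise was higher in old at 15 of 15 valine sites, against 66.1% of the 439, and these sites share libraries and partly reads. At position 55 of tRNA-Val-AAC-1-1, tRNA-Val-AAC-5-1 and tRNA-Val-CAC-2-1 this rested on young CMC 2, which was at the ceiling. Without young replicate 2 their young rises were 32.5, 32.9 and 26.7 points, above the old rises of 30.0, 30.5 and 18.8. The last old value also holds old CMC 3, at the ceiling. The median difference was 2.48 points over the valine sites and 1.39 over all 439. The 3 highest differences, old minus young, were 12.6 ± 3.8 points at position 13 of tRNA-Val-CAC-2-1, 9.99 ± 4.82 at position 13 of tRNA-Val-AAC-1-1 and 9.08 ± 11.6 at position 55 of tRNA-Val-AAC-5-1 (SE, n = 3 against 3). At both position 13 sites the 3 old pairs lay above the 3 young pairs, as the groups did without overlap at 13% of the 439 sites in either direction. The 3 lowest were at position 55, with 0.491 ± 2.54 points in tRNA-Val-TAC-1-1, 0.995 ± 2.1 in tRNA-Val-CAC-1-1 and 1.01 ± 11 in tRNA-Val-CAC-2-1 (SE, n = 3 against 3). Position 55 of tRNA-Val-TAC-1-1 and tRNA-Val-CAC-1-1 thus differed between ages by less than the spread between pairs.

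Without CMC, mean stop rates of at least 10% in the best-covered tRNA of each anticodon lay in the D loop (rows 16, 17, 19 and 20), in the anticodon (positions 34 and 36) and at position 46 of the variable loop. The D loop of tRNA-Val-CAC-2-1 had mean BEU rates of 38.8% in young and 40.0% in old at row 16, and 11.5% and 9.56% at row 17. At row 19 the libraries had 23.7, 26.3 and 25.2% in young and 0.702, 25.5 and 23.6% in old, and at row 20 27.4, 31.4 and 24.8% and 0.138, 29.1 and 32.1%. Old BEU library 1, the low value at both rows, was at the ceiling there, as was young BEU library 3 at row 20, and the other 2 old libraries lay near the young values. Row 20 of tRNA-Val-TAC-1-1 had 34.5% and 36.8%, and rows 19 and 20 of tRNA-Val-AAC-1-1 had 14.6% and 19.8% in young. At position 34, the A of the AAC anticodon, which is converted to inosine in the cell, tRNA-Val-AAC-1-1 had BEU rates of 22.5, 25.8 and 23.5% in young and 1.02, 26.7 and 27.3% in old. Old BEU library 1, the low value, stood at the ceiling, and the other 5 lay between 22.5 and 27.3%. The C at position 36 of the same tRNA had 33.2, 35.4 and 14.4% and 0.472, 23 and 22%, with young BEU 3 and old BEU 1 at the ceiling. Position 46 had 11.9 ± 10.2% in young and 10.7 ± 8.81% in old tRNA-Val-AAC-1-1, where 3 BEU libraries stood at the ceiling, and 17.3 ± 2.36% and 9.23 ± 7.76% in tRNA-Val-TAC-1-1, with 1 there (SD, n = 3 each). In the C27 tRNAs, free of the ceiling at this row, it was much higher: 64.6 ± 0.998% in young and 62.7 ± 4.39% in old tRNA-Val-AAC-2-1 (SD, n = 3 each). From row 45 to row 46 of young BEU 2, coverage rose from 617 to 1739 in tRNA-Val-AAC-2-1 and from 4522 to 5635 in tRNA-Val-AAC-1-1. These steps were similar in number, so the higher rate came with fewer reads that passed the base. The BEU rates of tRNA-Val-AAC-2-1 were also 29.4, 29.9 and 22.4% in young at positions 43, 44 and 45, and 13.1 and 14.2% at positions 47 and 56. The cause was not tested. tRNA-Val-CAC-1-1 had 32.2, 31.6 and 23.3% at positions 43 to 45. Position 56 was at the ceiling in 2 BEU libraries of both.

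**Figure D3:**
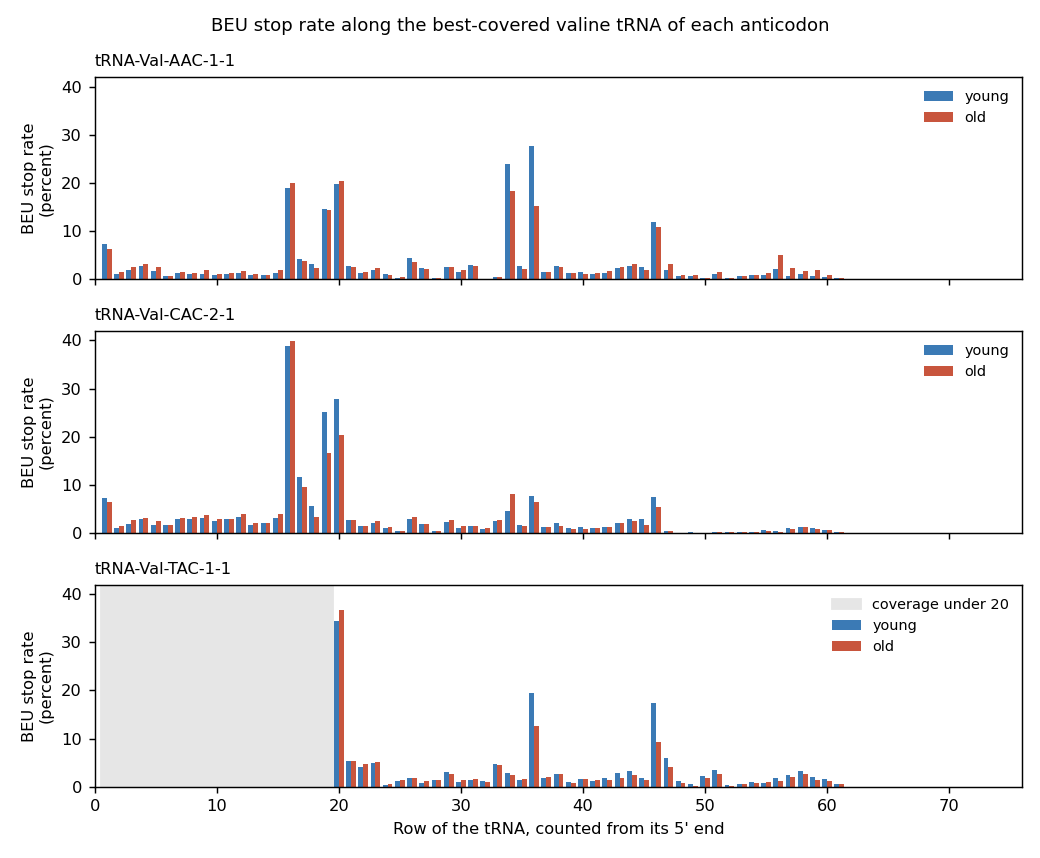
Mean BEU stop rate in percent (n = 3 libraries per age) at each row of the best-covered AAC, CAC and TAC valine tRNA, young in blue and old in red; grey marks rows with coverage under 20. The D-loop row 16 reaches 38.8% in young tRNA-Val-CAC-2-1 and 18.9% in young tRNA-Val-AAC-1-1, and rows 34 and 36 are high in the AAC tRNA.

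Between anticodons, limma called 4 of 26 valine differences in the BEU stop rate, beside 11.6% called of 327 over all amino acids. Position 16 stopped 50.5% of CAC reads and 19.5% of AAC reads, a difference of -31 ± 0.476 points (SE, 6 libraries; limma, adjusted p = 5.06e-07). In tRNA-Val-CAC-4-1 alone the rate was 71.6 ± 2.91% in young and 70.6 ± 2.65% in old (SD, n = 3 each), the highest BEU rate of any tested valine row. The deposited rows of this entry begin at row 8. From row 15 to row 16 of young BEU 1, its coverage rose from 326 to 1249, and that of tRNA-Val-CAC-2-1 from 1504 to 2449. These steps were similar in number, so the higher rate came with fewer reads that passed the base. This entry is part of the CAC value of 50.5%. Row 19 differed in the same direction by -11 ± 1.48 points, and at row 20 AAC minus TAC was -14.5 ± 0.473 (SE, 6 libraries; limma, adjusted p = 0.00141 and 6.72e-06). The row 19 difference was -17.4 ± 0.453 points below the ceiling (limma, adjusted p = 3.22e-07). It was -8.35 with tRNAs averaged in place of summed and -6.34 with the best-covered tRNAs, and not called in either. With the best-covered tRNAs the difference at position 16 was -19.9 points. At position 36, AAC stopped more than CAC, by 17.3 ± 2.6 points (adjusted p = 0.00203 by limma). That difference fell to 3.45 points below the ceiling and was no longer called.

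Between ages, 0 of 92 valine bases were called in the BEU libraries by edgeR, and 0 of 1190 of all tRNAs (0%). At an unadjusted p under 0.05 there were 4 valine bases (beside 5.8% of the 1190) by edgeR and 2 by limma on log odds, which also called 0. All 4 were the C at position 36, in tRNA-Val-AAC-2-1, tRNA-Val-AAC-3-1, tRNA-Val-CAC-3-1 and tRNA-Val-TAC-1-1, and all were lower in old, as were 5.38% of the 1190 bases at that threshold. They are not 4 separate measurements. From row 35 to row 36 of young BEU 1, coverage rose from 267 to 313 in tRNA-Val-AAC-2-1 and from 268 to 314 in tRNA-Val-AAC-3-1. In tRNA-Val-TAC-1-1 the rates were 19.1, 21.3 and 18.1% in young and 11.7, 13.7 and 12.8% in old libraries. The ages did not overlap, and the means were 19.5 ± 1.6% and 12.7 ± 1.04% (SD, n = 3 each; edgeR, adjusted p = 0.394). When only the sites below the coverage ceiling in all 12 libraries were fitted, this site alone of 72 valine bases was called (edgeR, adjusted p = 0.00614), against 2.69% of the 893 bases of all tRNAs tested there (2.58% lower in old). Coverage at it was 1647 to 7424 in the BEU libraries, and old BEU 1, at 7424, was close to the limit of 7500. The young rates of tRNA-Val-AAC-2-1 were 19.2, 25 and 21.1% and the old 13.8, 15.4 and 16.6%, again without overlap. In tRNA-Val-CAC-1-1, 26.5 ± 2.21% in young and 21.8 ± 2.74% in old (SD, n = 3 each), and in tRNA-Val-AAC-4-1, 41.4 ± 4.31% and 35 ± 4.39%, the ages overlapped.

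**Figure D4:**
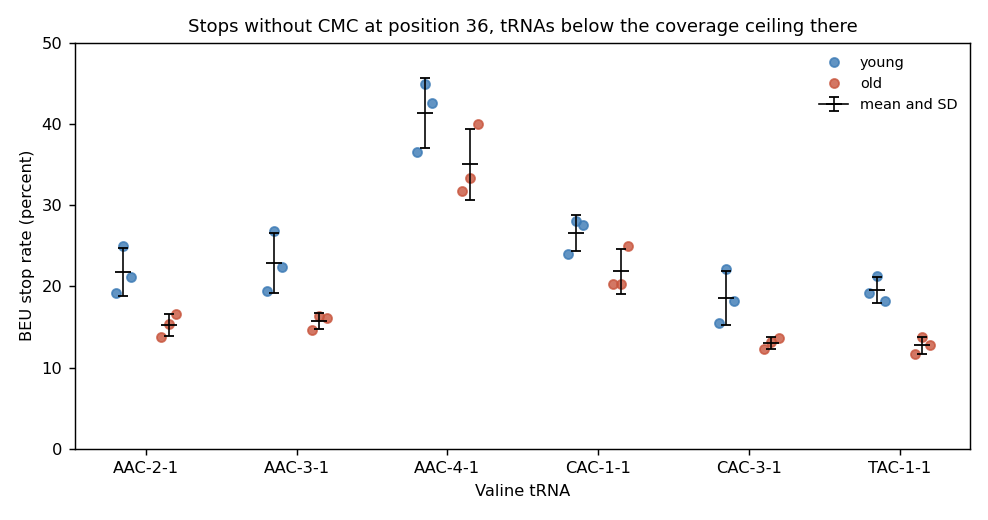
BEU stop rate in percent at position 36 in each library (points) with mean and SD (n = 3), young in blue and old in red, in the 6 valine tRNAs that were below the coverage ceiling there. The old mean is lower in all 6, for example 12.7% against 19.5% in TAC-1-1, and the libraries of the ages overlap in AAC-4-1 and CAC-1-1. The AAC and CAC tRNAs are near copies that partly share reads, so the 6 are not separate measurements.

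Set against all other tRNAs with T at the same position, valine differed at 5 of 20 positions by limma, beside 11.9% called of the 385 such comparisons over all amino acids (6.49% higher and 5.45% lower). Position 27 was higher, with 48.3 points over 5 valine tRNAs and 27.9 over 45 others, a difference of 20.4 ± 0.223 (SE, 6 pairs; limma, adjusted p = 7.23e-07). Position 32 was higher by 25.1 ± 0.771 points, for the 1 TAC tRNA against 28 others (adjusted p = 1.26e-05 by limma), and by 16.2 with counts summed over tRNAs. With the best-covered tRNA of each anticodon alone, the difference at position 27 was 10.7 points. Valine was lower at positions 28, 54 and 55, with differences of -14 ± 0.396, -10.6 ± 0.392 and -12.9 ± 0.495 points (SE, 6 pairs; limma, adjusted p = 1.04e-05, 2.1e-05 and 2.22e-05). At position 54 the 10 valine tRNAs averaged 2.23 points and the 139 others 12.9, and at position 55 22.8 against 35.7 over 146 others. With counts summed over tRNAs in place of means, positions 28 (-4.49 points) and 54 (-8.84) fell short of 10 points. Position 54 did so too with the best-covered tRNA of each anticodon alone (-7.86 points). Below the ceiling, with 3 valine tRNAs, the difference was -16.1 ± 0.478 points there and -28.4 ± 1.42 at position 55. These 3 were tRNA-Val-AAC-3-1, tRNA-Val-AAC-4-1 and tRNA-Val-CAC-3-1, with a mean of 5.82 points at position 55. No valine tRNA called at position 55 was among them, so the larger difference there rests on which tRNAs were left. At position 13 valine averaged 25.6 and the others 21 points, a difference of 4.59 ± 2.16 that was not called (limma, adjusted p = 0.146). Its sign turned with summed counts (-5.27 points) and with the best-covered tRNAs (-1.70). Position 16 was called at 12.6 points with the best-covered tRNAs, and was not called over all tRNAs, at 4.46.

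**Figure D5:**
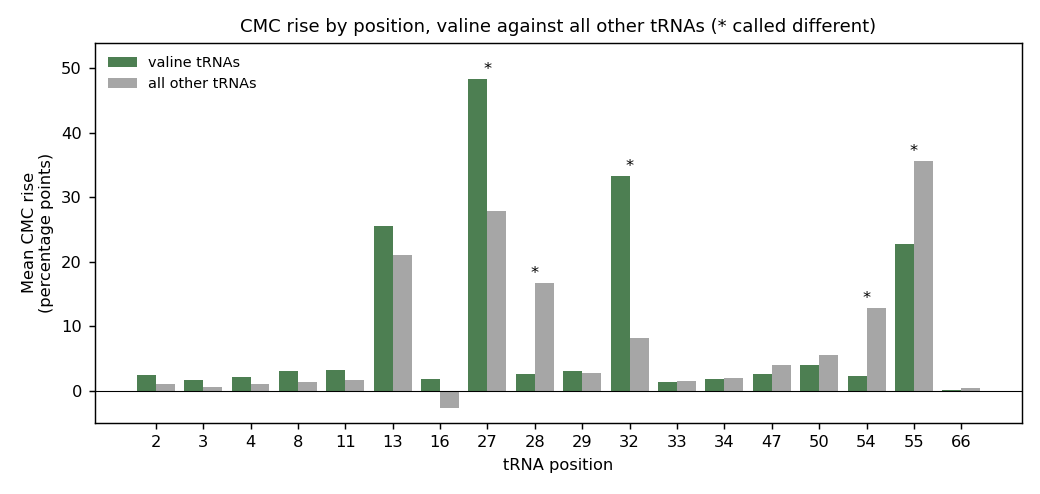
Mean CMC rise in percentage points over the valine tRNAs (green) and all other tRNAs (grey) that hold T at each standard position, averaged over young and old pairs; asterisks mark differences called by limma. Valine is higher at positions 27 (48.3 against 27.9 points) and 32, and lower at 28, 54 and 55.

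The abundance of valine tRNAs, taken as the highest coverage of each in the BEU libraries, showed no called difference between ages. edgeR called 0 of 12 valine tRNAs and 0 of 213 in all (0%), with 0 valine tRNAs at an unadjusted p under 0.05, and DESeq2 gave 0 and 0. A lower share of cells holding a tRNA and less of it per cell cannot be told apart in such bulk samples. tRNA-Val-AAC-3-1, always below the ceiling, had 1026, 925 and 1594 reads in young and 1839, 700 and 550 in old libraries, and these ranges overlapped. After normalization its log2 fold change, old over young, was 0.15, and that of tRNA-Val-CAC-3-1 was also 0.15 (edgeR, adjusted p = 0.697 for both). tRNA-Val-AAC-1-1 and tRNA-Val-CAC-2-1 had 0.58 and 0.62 (adjusted p = 0.683 and 0.681 by edgeR), but both were at the ceiling in all 6 BEU libraries, so their levels were capped. tRNA-Val-TAC-1-1, at the ceiling in 2, had 0.02. The median over the 12 was 0.11, beside 0.07 over the 213.

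Not all members could be tested. tRNA-Val-CAC-5-1, with at most 129 reads at its best-covered base in any library, and tRNA-Val-CAC-7-1, with at most 48, had no row with coverage of at least 20 in all libraries. The C at position 27 of tRNA-Val-CAC-5-1, whose sequence is that of tRNA-Val-CAC-1-1 over its 31 rows, had mean stop rates of 17.3% with BEU and 70.6% with CMC in young, and 16.8% and 72.2% in old. For tRNA-Val-AAC-4-1 the C at position 27 had 6.22% and 44.7% in young and 8.33% and 42.8% in old. Both are means of 3 libraries with as few as 15 reads, given without a test.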

How the data were processed

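DM-Ψ-seq libraries of 4 groups, 3 libraries each, were analysed. The deposited tables give, for each base of each tRNA, the coverage as read counts, the stop reads (an other whole-number value, at least 1 in every row) and the stop rate in percent; the sources used here do not give the authors' rule for a stop. Bowtie2 2.3.5, Bowtie and the build mm10 are named in the submitters' processing notes. Their roles are not stated. The deposited stop rate in percent equals 100 times stop reads over coverage in all 28302 rows.

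From these values, stop and read-through counts were fitted with edgeR 4.0.16 (quasi-likelihood test, 1 coefficient per library, 4 group log odds), T and other bases adjusted apart over all tRNAs by Benjamini-Hochberg. limma 3.58.1 was used for differences within pairs of libraries, and DESeq2 1.42.0 as an alternative for abundance. Age differences in the CMC rise were tested at the T sites with a mean rise of at least 10 points over the 6 pairs, and those in BEU stops at bases with a mean BEU rate of at least 5% and called from 5 points. Anticodon and position differences were called from 10 points. D-loop bases are named by row. The scripts were tested on simulated data. A first simulation with a larger spread between libraries recovered no age changes, and the spread was then lowered, after which most were recovered. The age tests may therefore miss differences where libraries vary more, and a count of 0 does not show that ages are alike.

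Named sites are the T calls of the best-covered tRNA of each anticodon, calls elsewhere where it has none, the 3 highest and 3 lowest age differences, BEU rates of at least 10%, and called comparisons. Other sites, such as C at position 27, position 26 and the uncalled tRNAs at position 55, were added after their values were seen. The members and lists were chosen with earlier results of these data known. Alternatives covered coverage minimum, identical entries, the ceiling, 1 subtracted stop read, the test, the scale and each left-out pair. Comparisons with the best-covered tRNA of each anticodon only were chosen after seeing the data. No genome was used, so tRNA gene coordinates are not given. Reads are not independent molecules, and depth limits precision by counting error.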

Additional observations from a re-analysis of the deposited data

How the results depend on the processing

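The 12 valine T sites called in young cells became 20 at a coverage minimum of 10, 23 at 1, 30 with all entries kept and 7 below the ceiling. The 18 in old became 28 at a minimum of 1, 43 with all entries kept and 11 below the ceiling. Below the ceiling 1 valine base was called different between ages in the BEU stop rate, against 0 when bases at the ceiling were kept. Of the 893 bases of all tRNAs tested below the ceiling, 24 were called (2.69%). The 6 anticodon differences in the CMC rise became 3 below the ceiling and 3 on log odds, and the 4 in the BEU stop rate became 2 at a coverage minimum of 50. The 5 positions that differed from other tRNAs became 3 with summed counts. Fewer or more sites tested is part of the change with the minimum, the entries and the ceiling. The cause was not tested for the rest. Leaving out 1 pair at a time gave 10 to 15 calls in young, 12 to 17 in old, 0 by age in the rise, 0 in the BEU rate, 5 to 6 anticodon differences in the rise, 4 to 6 in the BEU rate, 5 to 6 positions against other tRNAs and 0 in abundance. With the replicate number as a block, 11 sites were called in young, 14 in old and 0 by age. Each deposited table holds the BEU and CMC library of the same age and number. With group means removed, same-numbered libraries had correlations of -0.141 to 0.044 over 10059 sites, and differently numbered ones -0.131 to 0.187. These values cannot decide whether same-numbered libraries came from the same RNA. On log2 odds the AAC minus CAC difference at position 13 turned from -12.8 points to 0.11 and was not called. No other called site or difference changed sign. Some uncalled differences also turned. Position 13 against other tRNAs went from 4.59 to -5.27 points with summed counts and to -1.70 with the best-covered tRNAs. With the best-covered tRNAs the AAC minus CAC difference at position 27 went from 4.29 to -1.36. The AAC minus TAC difference in the BEU rate at position 46 went from 8.83 to -1.96 with them. The age difference in the rise at position 55 of tRNA-Val-AAC-1-1, tRNA-Val-AAC-5-1 and tRNA-Val-CAC-2-1 turned without young replicate 2. Young rises were then 32.5, 32.9 and 26.7 points, above old rises of 30.0, 30.5 and 18.8. The cause was not tested. Of the 30 called results at T sites, 21 held under every alternative in which the site was tested, and 9 were lost without at least 1 pair. Of 13 at other bases 2 held and 11 were lost. A site that a setting removed did not count as lost there, and only 7 young and 11 old T calls stood below the ceiling. The ceiling limits sites 3′ in the most abundant tRNAs, and low coverage limits the D arm.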
